A study of Mus musculus with 6 samples.

Results

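Adhesion molecules of the vessel wall and their selectin ligand were followed in mouse aorta with and without the microRNA gene Mir26b. The set held 9 genes chosen by symbol, Vcam1, Icam1, Sele, Selp, Icam2, F11r, Jam3, Mcam and Selplg, of 36557 gene rows in the deposited tables, and all 9 were among the 17392 genes tested. RNA came from aortic arch plus thoracic aorta, flushed with saline, of mice on a high-fat diet (HFD) for 4 weeks. The control group held 3 libraries labelled Apoe-/- control, and the knockout group held 3 libraries labelled Apoe-/- MiR26b-/-. By label both groups carried the Apoe-/- genotype, which removes apolipoprotein E, a ligand for the clearance of cholesterol-rich lipoproteins from blood. Counts were still assigned to Apoe, at 29.6, 25.9 and 28.3 CPM (counts per 1e+06 counts after scaling) in control replicates 1, 2 and 3 and 44.7, 42.7 and 38.3 CPM in knockout replicates 1, 2 and 3 (log2 difference 0.58, edgeR adjusted p = 0.0213). The gene-level counts do not show whether these reads lie in the deleted part, so they check nothing about that genotype. Strain, age, sex and the number of animals per library were not given in the sources used here, nor was it stated whether controls were littermates. The labels name no promoter or cell type for the Mir26b deletion, and no microRNA was counted, so the deletion itself was not checked. The labels do not say whether replicates are different mice. The p-values below therefore speak only of variation among 6 libraries, part of which may be technical.

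Leukocytes leave the blood in steps. Selectins on the vessel wall catch sugar-decorated ligands such as PSGL-1 on passing cells and let them roll. Immunoglobulin-family molecules such as VCAM-1 and the ICAMs then hold leukocyte integrins, and junctional molecules of the JAM family and MCAM take part in the passage between endothelial cells. Some of these molecules are classed as inducible, since inflammatory cytokines raise their transcription through NF-kB in endothelium (Vcam1, Icam1, Sele and, in mice, Selp). Others are classed as constitutive (Icam2, F11r, Jam3 and Mcam), being present on resting vessels. Vcam1, Jam3 and Mcam are also made by smooth muscle cells, Vcam1 also by some macrophages and fibroblasts, and Selp also by platelets and their precursors. Selplg is made mainly by leukocytes and is treated here on its own.

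The RefSeq promoter table (GRCm38.p6, 250 bases before to 50 after the start) held 5 of the 9 genes, Icam1, Sele, Selp, F11r and Mcam, and not Vcam1, Icam2, Jam3 or Selplg. Promoters of the 3 inducible genes held there are shown with Mcam, the constitutive gene that fell, because they let the reader see which known inflammatory motifs lie near the start. Capitals mark the AP-1 motif TGANTCA, the TATA box TATAAA and the 10-base consensus of c-Rel and RelA, searched on both strands.
Icam1, chr9:21015690-21015989, plus strand: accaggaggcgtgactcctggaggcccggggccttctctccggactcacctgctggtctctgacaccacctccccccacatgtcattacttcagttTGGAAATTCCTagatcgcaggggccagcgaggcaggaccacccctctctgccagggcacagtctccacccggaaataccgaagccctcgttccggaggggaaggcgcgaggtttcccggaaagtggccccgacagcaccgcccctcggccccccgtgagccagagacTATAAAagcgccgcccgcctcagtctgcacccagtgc
Sele, chr1:164047984-164048283, plus strand: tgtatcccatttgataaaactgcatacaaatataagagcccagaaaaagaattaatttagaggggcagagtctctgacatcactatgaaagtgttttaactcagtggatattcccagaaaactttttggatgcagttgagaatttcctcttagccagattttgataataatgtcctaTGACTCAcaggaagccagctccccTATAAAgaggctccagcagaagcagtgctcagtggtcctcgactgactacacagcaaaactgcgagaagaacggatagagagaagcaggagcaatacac
Selp, chr1:164115014-164115313, plus strand: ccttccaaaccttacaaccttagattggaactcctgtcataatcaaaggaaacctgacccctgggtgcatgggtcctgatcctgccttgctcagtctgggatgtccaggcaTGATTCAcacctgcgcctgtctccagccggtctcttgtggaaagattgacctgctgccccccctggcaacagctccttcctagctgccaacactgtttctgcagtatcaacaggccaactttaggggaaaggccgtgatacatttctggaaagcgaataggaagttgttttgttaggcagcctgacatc
Mcam, chr9:44134408-44134707, plus strand: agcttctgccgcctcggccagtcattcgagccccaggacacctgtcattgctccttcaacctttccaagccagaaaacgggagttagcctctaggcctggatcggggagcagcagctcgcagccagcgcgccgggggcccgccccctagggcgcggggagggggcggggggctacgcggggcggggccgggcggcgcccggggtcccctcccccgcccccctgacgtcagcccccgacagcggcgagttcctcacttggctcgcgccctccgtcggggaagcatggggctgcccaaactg

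Counted from the RefSeq start, with negative positions before it, Icam1 held the c-Rel and RelA consensus from -154 to -145 on the plus strand and, in an overlapping match, from -153 to -144 on the minus strand. That consensus was in 8.38% of all 32851 promoters of this length. The other NF-kB consensus searched, of 10 bases, was in 4.51% of promoters and in 0 of the 5. Sele held AP-1 from -73 to -67 and a TATA box from -49 to -44. Selp held AP-1 from -139 to -133. F11r, a constitutive gene whose sequence is not printed, held both AP-1 (-109 to -103) and the c-Rel and RelA consensus (-97 to -88), so these motifs did not separate the inducible from the constitutive genes. AP-1 was in 7.81% and the TATA box in 13.6% of all promoters. Mcam held none of the capitalised motifs, and its window was 72.7% G or C, against 41.7% for Sele, 51.7% for Selp and 64.7% for Icam1, where the median promoter had 52.7%. The core of the interferon-stimulated response element, GAAANNGAAA, was in 0 of the 5 and in 3.44% of all promoters. The 4-base ETS core GGAA, which overlaps the c-Rel and RelA match in Icam1, was in all 5 and in 96% of all promoters. A match is a string of letters and not a shown binding site. A promoter without a match may hold a site that these strings do not cover.

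Mature miR-26b is shown with miR-26a, which shares its seed and is encoded by other genes, with the seed (bases 2 to 8) in capitals. Beside them stands the only seed match found in the 3′ UTRs of the 9 genes, in capitals with its flanks.
mmu-miR-26b-5p: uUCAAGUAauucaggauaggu
mmu-miR-26a-5p: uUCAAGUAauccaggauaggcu
Vcam1, longer 3′ UTR: cactttggacACTTGAAtgttagtcctg

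The Vcam1 match lies at bases 1223 to 1229 of a 3′ UTR of 1404 bases (GENCODE mouse release M21, GRCm38) and is of the 7-base kind that pairs with seed bases 2 to 7 and has an A opposite base 1. It was not in the 928-base UTR of the other coding transcript of Vcam1, and the gene-level counts do not separate the transcripts. The other 8 genes had 0 matches of 7 or 8 bases in any annotated coding transcript's 3′ UTR, and 18.3% of 21020 genes had at least 1 match in their longest 3′ UTR. Mature miR-26b lies on chromosome 1 at 74394324 to 74394344, plus strand (GRCm38.p6). Sele, Selp and F11r are on the same chromosome, at distances of 89.7, 89.7 and 97.0 Mb from it.

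The total of the deposited estimated counts of a library ranged from 51634139 to 54817547. Low values fell most often on multiples of a constant that differed by library, from 0.9012 in control replicate 2 to 1.0696 in knockout replicate 2. The totals are therefore not exact read depths. With this constant undone, edgeR called 5 of the 9 genes higher and 1 lower. Levels are given as CPM, the count per 1e+06 counts of the library after TMM scaling. The first principal component (61.9% of variance) placed knockout replicate 3 at 0.97, between the controls (-45.35 to -25.42) and the other knockouts (47.05 and 55.72). Whether that library carries the genotype of its label was not tested, and every knockout mean below includes it unless stated. Each of the 9 genes is also given without it. As a check of the labelled tissue, all 8 smooth muscle genes and all 20 endothelial genes fixed for this check were tested, with Myh11 at 9040 CPM and Pecam1 at 720 CPM in the controls. Perivascular fat was present in unequal amounts, with Ucp1 at 335 CPM and Plin1 at 109 CPM on average in controls. The median log2 level of 10 fat genes, relative to the control mean, was 0.80, 0.17 and -0.94 in control replicates 1, 2 and 3. In knockout replicates 1, 2 and 3 it was -2.002, -1.28 and 0.43. The median of the mesothelial genes was -0.77, 1.10 and -0.62 in controls and -1.32, -1.17 and 0.14 in knockouts. Knockout replicate 3 thus also stood apart from the other knockouts in these lists. What part this tissue content has in its position was not tested.

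The inducible genes Vcam1, Sele and Selp rose in the knockout group, and so did the leukocyte ligand Selplg. Of the constitutive genes, F11r rose and Mcam fell. Sele rose 4.48-fold, Vcam1 3.49-fold, Selplg 3.35-fold and Selp 1.76-fold. F11r rose 1.147-fold and Mcam was 1.56-fold lower. Icam1, Icam2 and Jam3 did not pass the test. Called here means a Benjamini-Hochberg adjusted p under 0.05 by edgeR's quasi-likelihood test over all 17392 genes. By that rule 5 of the 9 genes were higher and 1 was lower, where 6.5% of all tested genes were called higher, 3.84% lower and 10.3% either way. Counts of called genes in the lists below, where they come from this fit, are to be read against the same shares. In CPM the groups did not overlap for 8 of the 9, 6 of them higher and 2 lower, where 18.9% of all tested genes were higher without overlap, 17.2% lower and 36.1% either way.

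The calls depended on which libraries were in the fit. Without knockout replicate 3, edgeR called 6 of the 9 higher, Icam1 being added, and 1 lower, in a fit that called 17.2% of all 17720 genes higher and 11.4% lower. Counts without that library, here and for the lists below, are to be read against those shares. Without any 1 of the other 5 libraries it called 0, although 7 of the 9 had an unadjusted p below 0.05 each time. In those fits, with 17638 to 17760 genes tested, DESeq2 called 4 to 6 of the 9 higher and 1 lower, and limma-voom called 0. Over all genes DESeq2 called 1172 to 1883 higher and 771 to 1191 lower there, and limma-voom 0 to 43 and 0 to 22. Leaving out a library changed the direction of 1 gene, Icam2 (log2 difference 0.0065 without knockout replicate 2). In bulk tissue a change in the number of cells of a type and a change in RNA per cell cannot be told apart, which applies to every gene below.

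**Figure D1:**
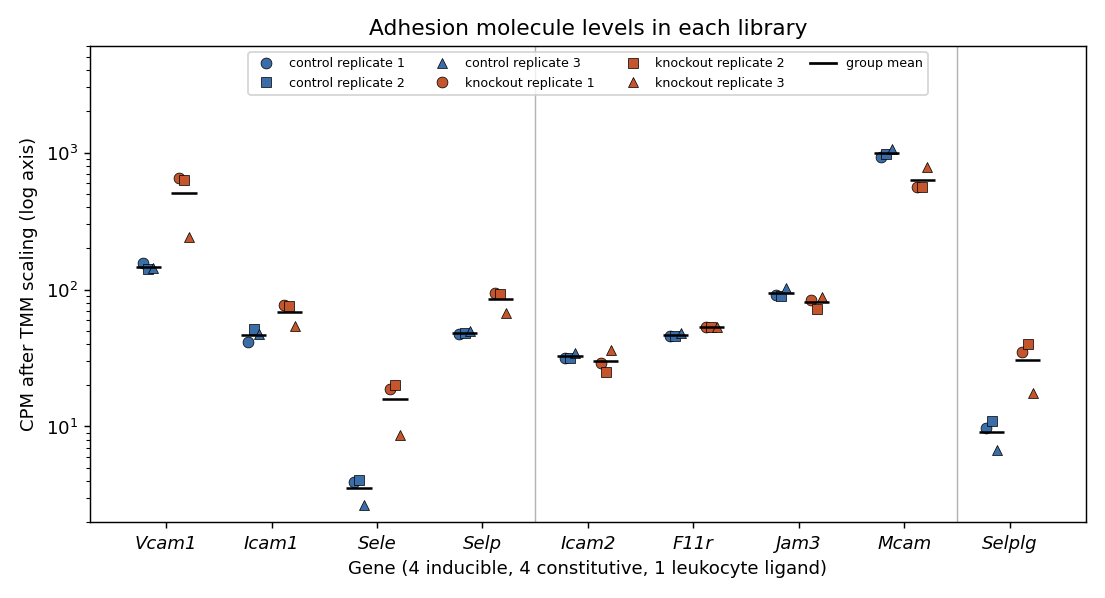
Level of each of the 9 genes in each library, in CPM after TMM scaling on a log axis; points are libraries and bars are group means. Knockout replicate 3 (triangle) lies between the controls and the other knockouts for Vcam1, Icam1, Sele, Selp, Jam3, Mcam and Selplg, and beside the other knockouts for F11r.

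Vcam1 (ENSMUSG00000027962, chromosome 3, 116109949 to 116129688, minus strand, 9 exons in its longest coding transcript) encodes the receptor for the integrin alpha4 beta1 on monocytes and lymphocytes. Its level was 155, 141 and 143 CPM in control replicates 1, 2 and 3, and 654, 633 and 242 CPM in knockout replicates 1, 2 and 3. Every knockout library was above every control, but replicate 3 held far less than the other knockouts. The means were 146 ± 7.99 and 510 ± 232 CPM (SD, n = 3 each), a log2 difference of 1.80 (SE 0.36, 95% interval 0.94 to 2.66) with an edgeR adjusted p of 0.0347. Without knockout replicate 3 the log2 difference was 2.14 (adjusted p = 0.0002137 by edgeR). The call was lost in limma on log2(TPM + 1) and log2(TPM + 0.1), with adjusted p of 0.0579 and 0.0524 and log2 differences of 1.63 and 1.64. It was also lost when the fat level entered the edgeR fit as a covariate (adjusted p = 0.106, log2 difference 1.31).

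Icam1 (ENSMUSG00000037405, chromosome 9, 21015985 to 21028817) encodes the main endothelial ligand of the beta2 integrins. Control replicates 1, 2 and 3 held 41.4, 51.5 and 47.4 CPM, and knockout replicates held 76.6, 75.5 and 53.8 CPM. The groups did not overlap, but knockout replicate 3 stood only just above control replicate 2. The log2 difference was 0.55 (SE 0.15, 95% interval 0.19 to 0.92) and did not pass the edgeR test (adjusted p = 0.064). It passed with DESeq2 (adjusted p = 0.00616) and without knockout replicate 3 (edgeR, log2 difference 0.70, adjusted p = 0.00309). Among the 4 inducible genes it had the smallest log2 difference, and its printed promoter holds the c-Rel and RelA consensus.

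Sele (ENSMUSG00000026582, chromosome 1, 164048234 to 164057677) encodes E-selectin, which endothelium makes only after activation in most vessels. Its level was 3.93, 4.05 and 2.68 CPM in the controls, from 208, 211 and 141 deposited counts. In knockout replicates 1, 2 and 3 it was 18.8, 20.3 and 8.67 CPM, from 1007, 1067 and 458 counts. The lowest knockout library was above the highest control, and replicate 3 reached 52.7% of the log2 shift of the other 2. The log2 difference was 2.16 (SE 0.35, 95% interval 1.33 to 2.996) with an edgeR adjusted p of 0.0274, and 2.46 without knockout replicate 3 (edgeR adjusted p = 0.000502). With the fat covariate it was 1.86 and the edgeR call was lost (adjusted p = 0.0844).

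Selp (ENSMUSG00000026580, chromosome 1, 164115264 to 164150026), which lies next to Sele, encodes P-selectin, stored in endothelial granules and in platelets. Controls held 47.3, 47.9 and 49.6 CPM and knockouts held 94.3, 93.3 and 67.2 CPM. The controls lay close together and all knockouts were above them. The means were 48.3 ± 1.21 and 85.0 ± 15.4 CPM (SD, n = 3 each), with a log2 difference of 0.82 (SE 0.13, 95% interval 0.50 to 1.13) and an edgeR adjusted p of 0.0274. It kept the call in 13 of the 14 alternatives that used all libraries, the exception being the covariate for endothelial level described below. Without knockout replicate 3 the log2 difference was 0.96.

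Among the constitutive genes, Icam2 (ENSMUSG00000001029, chromosome 11) encodes a ligand of the integrin LFA-1 on resting endothelium. It was at 31.6, 31.8 and 34.3 CPM in controls and 29.2, 25.1 and 36.2 CPM in knockouts. Knockout replicate 3 was the highest of the 6 libraries and knockout replicate 2 the lowest. The log2 difference was -0.11, with a 95% interval from -0.43 to 0.20 and an edgeR adjusted p of 0.608. It was -0.26 without knockout replicate 3 (edgeR adjusted p = 0.0589).

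F11r (ENSMUSG00000038235, chromosome 1, 171437535 to 171464603) encodes JAM-A of endothelial and epithelial tight junctions, also present on platelets and leukocytes. It was at 45.8, 45.6 and 48.3 CPM in controls and 52.9, 53.6 and 53.7 CPM in knockouts. This was the only one of the 9 for which knockout replicate 3 was level with the other knockouts, at 106% of their log2 shift. The rise was small, with a log2 difference of 0.20 (SE 0.05, 95% interval 0.09 to 0.31) and an edgeR adjusted p of 0.0437. The call was lost with upper-quartile scaling (adjusted p = 0.0523), with no low-count filter (0.0709), with limma-voom (0.057), with limma on either TPM scale (0.0682 and 0.066) and with the fat covariate (0.113). The log2 difference was 0.19 without knockout replicate 3 (edgeR adjusted p = 0.03).

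Jam3 (ENSMUSG00000031990, chromosome 9, 27097384 to 27155421) encodes JAM-C, a junctional partner that binds leukocyte Mac-1. It was at 91.4, 89.9 and 102 CPM in controls and 83.2, 71.6 and 88.0 CPM in knockouts. The groups did not overlap, with control replicate 2 and knockout replicate 3 close together. The log2 difference was -0.22 (95% interval -0.44 to -0.0031), and it did not pass the edgeR test (adjusted p = 0.158). It was -0.29 without knockout replicate 3 (edgeR adjusted p = 0.0547).

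Mcam (ENSMUSG00000032135, chromosome 9, 44134469 to 44142727) encodes MCAM, or CD146, found at endothelial junctions and on smooth muscle cells and pericytes. Controls held 929, 971 and 1065 CPM and knockouts held 559, 557 and 785 CPM. All knockouts were below all controls, with knockout replicate 3 the nearest to them. The means were 988 ± 69.8 and 634 ± 131 CPM (SD, n = 3 each), a log2 difference of -0.64 (SE 0.15, 95% interval -0.998 to -0.29) with an edgeR adjusted p of 0.045. Without knockout replicate 3 it was -0.83 (edgeR adjusted p = 0.000863). The call was lost with library size alone as the scaling (adjusted p = 0.0549), with limma-voom (0.0523), with limma on either TPM scale (0.0592 and 0.0538) and with the fat covariate (0.11), while the direction stayed the same.

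Selplg (ENSMUSG00000048163, chromosome 5, 113818536 to 113832644) encodes PSGL-1, which P-, E- and L-selectin bind. It was at 9.81, 10.9 and 6.79 CPM in controls and 34.8, 39.9 and 17.5 CPM in knockouts. The groups were well apart, with replicate 3 the lowest knockout. The log2 difference was 1.75 (SE 0.33, 95% interval 0.96 to 2.54) with an edgeR adjusted p of 0.0325, and 2.03 without knockout replicate 3. The call was lost with limma-voom (log2 difference 1.69, adjusted p = 0.0575) and with the fat covariate (1.499, edgeR adjusted p = 0.111).

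**Figure D2:**
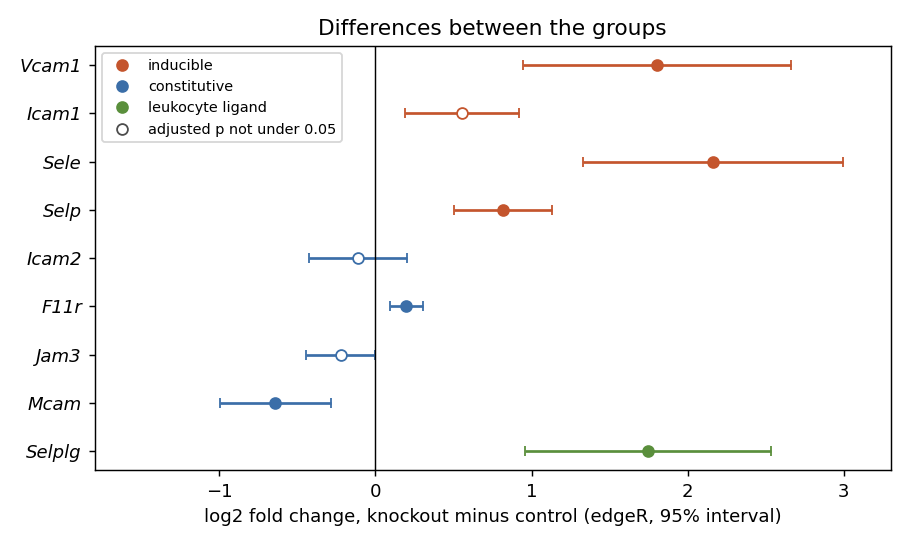
Log2 fold change of each gene, knockout minus control, with its 95% interval from the edgeR fit; open points did not pass the test. The 4 inducible genes lie between 0.55 and 2.16 and the 4 constitutive genes between -0.64 and 0.20.

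Inducible and constitutive molecules were compared by description only, since the genes were chosen with results known. The 4 inducible genes had a median log2 difference of 1.31 with 3 called higher, and the 4 constitutive genes had a median of -0.17 with 1 called higher and 1 lower. Over all tested genes the median was -0.0033. Within each library, the median log2 level of the inducible genes minus that of the constitutive genes, each relative to the control mean, was 0.07, 0.10 and -0.10 in the controls. It was 1.73, 1.92 and 0.58 in knockout replicates 1, 2 and 3. The group means of this contrast, which does not change with library scaling, were 0.03 ± 0.11 and 1.41 ± 0.73 (SD, n = 3 each), and every knockout library was above every control. The difference between the means was 1.38, and 1.80 without knockout replicate 3.

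Levels of different genes were compared on the deposited TPM, which is scaled by transcript length. In controls Mcam was highest at 599 ± 40.2 TPM, followed by Jam3 (87.9 ± 6.99) and Vcam1 (78.1 ± 4.75), whose ranges overlapped. Below them came Icam2 (50.05 ± 1.02), F11r (35.8 ± 2.29), Icam1 (30.4 ± 3.18), Selp (23.2 ± 0.708), Selplg (8.38 ± 1.91) and Sele (1.96 ± 0.42), each clear of its neighbour over the 3 libraries. In knockouts Vcam1 at 266 ± 118 TPM stood in second place, above Jam3 in every library. Icam2, Icam1, Selp and F11r then lay between 43.3 and 46.9 TPM on average and their ranges overlapped. Sele was last in both groups, at 8.98 ± 3.60 TPM in knockouts.

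These shifts changed the make-up of the set. The inducible genes made up 15.5%, 15.2% and 13.7% of the summed TPM of the 8 vessel-wall genes in the controls. They made up 46.9%, 46.8% and 23.5% in knockout replicates 1, 2 and 3. Vcam1 alone was between 56.3% and 61.8% of the inducible sum in controls and between 63.7% and 75.3% in knockouts. The ratio of Vcam1 to Mcam in TPM was 0.147, 0.13 and 0.116 in controls and 0.981, 0.953 and 0.269 in knockouts. The ratio of Selp to Sele ran the other way, from 10.3, 10.5 and 16.2 in controls to 4.66, 4.15 and 6.91 in knockouts, so that P-selectin transcripts still outnumbered E-selectin transcripts per length in every library. Without Mcam, the constitutive sum was 169, 167 and 186 TPM in controls and 166, 152 and 180 TPM in knockouts, and these ranges overlapped.

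**Figure D3:**
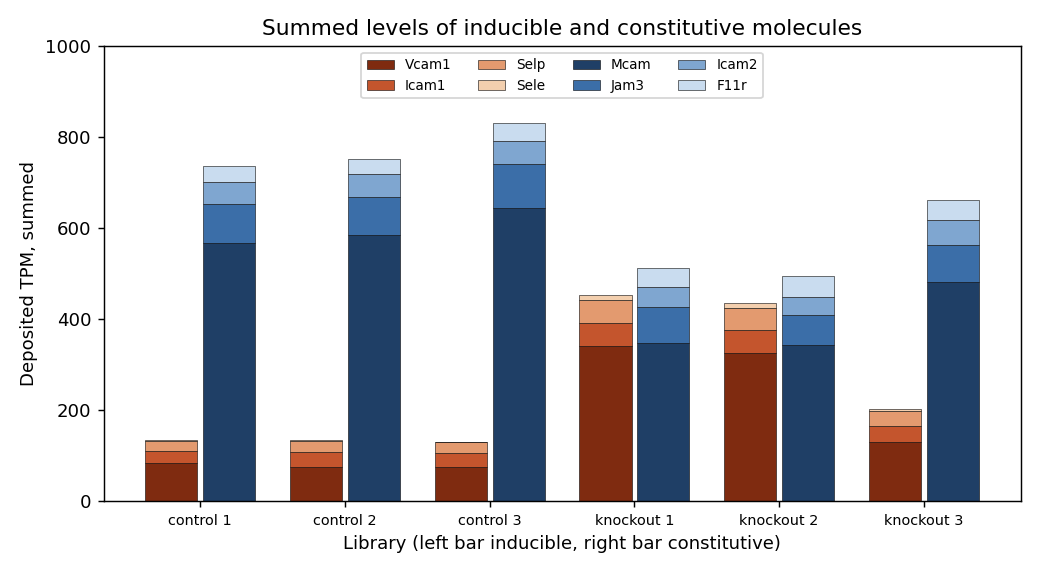
Summed deposited TPM of the inducible genes (left bar) and the constitutive genes (right bar) in each library, stacked by gene. The inducible sum was 131 to 135 TPM in controls and 203 to 453 TPM in knockouts, and the constitutive sum was 736 to 830 TPM and 495 to 662 TPM.

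Some endothelial genes rose and others did not. Of 20 endothelial identity genes, all tested, 6 rose and 0 fell, with a median log2 difference of 0.29, and 9 rose and 0 fell without knockout replicate 3 (median 0.28). Their summed level was 1283 to 1520 TPM in controls and 1645 to 1770 TPM in knockouts, and none was at 0. The junction gene Cldn5 rose 2.06-fold, Sox17, a transcription factor gene of arteries, 1.42-fold, and Egfl7, which encodes a secreted factor, 1.38-fold. The junction gene Pecam1, the nitric oxide synthase gene Nos3, the receptor gene Tek and the transcription factor gene Erg did not pass. Their log2 differences were -0.07, -0.0017, -0.19 and -0.28, and Ptprb, at -0.03, did not pass either. The other genes that did not pass had positive differences. These were Plvap (0.64), Robo4 (0.49), Flt1 (0.32), Kdr (0.30), Esam (0.27), Vwf (0.19), Eng (0.11), Emcn (0.09) and Mmrn2 (0.06). Relative to this list's median in each library, Vcam1, Sele, Selp and Selplg were still higher in every knockout than in every control, with mean log2 differences of 1.38, 1.79, 0.51 and 1.396. On the same measure Icam1 overlapped between the groups (0.25), and so did Icam2 (-0.41) and F11r (-0.09), while Jam3 (-0.52) and Mcam (-0.95) were lower without overlap. Since the list's median was higher in the knockouts, an unchanged gene also comes out lower on this measure. With the mean endothelial level as a covariate in the edgeR fit, 0 genes of 17392 were called, with 952 at an unadjusted p under 0.05. In this fit the 9 genes kept their directions, from -0.83 for Jam3 to 2.85 for Sele. The list's median by library, relative to the control mean, was -0.08, -0.06 and 0.15 in controls and 0.36, 0.33 and 0.19 in knockouts. Endothelial level thus varied with group, and 6 libraries leave such a fit little to tell group and covariate apart.

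Most leukocyte and macrophage genes rose. Of 12 tested, 10 rose and 0 fell, with a median log2 difference of 2.07, and their summed level was 717 to 968 TPM in controls and 1863 to 5234 TPM in knockouts, with none at 0. All 12 rose without knockout replicate 3 (median 2.38). Cd68, a macrophage lysosomal glycoprotein gene, rose 6.02-fold, and the signalling adaptor gene Tyrobp 4.68-fold. Lyz2, the lysozyme gene of myeloid cells, rose 5.10-fold. The median of the list, relative to the control mean, was 2.31, 2.56 and 1.04 in the knockout libraries, and Selplg stood at 1.95, 2.15 and 0.96 above the control mean. Relative to the list, Selplg was lower in every knockout than in every control, with a mean log2 difference of -0.29. Vcam1 and Sele, on the same relative measure, overlapped between the groups, with mean differences of -0.31 and 0.10, whereas Icam1 (-1.44) and Selp (-1.18) were lower in every knockout than in every control. Since the list itself rose, an unchanged gene also comes out lower on this measure. What part a larger number of leukocytes has in these levels was not tested.

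Contractile genes of smooth muscle fell in part. The list held 8 tested genes, of which 4 fell and none rose, with a median log2 difference of -0.52 and summed levels of 25145 to 29250 TPM in controls and 17419 to 20244 TPM in knockouts. In the fit without knockout replicate 3, 8 of 8 fell (median -0.63), and without control replicate 1 edgeR called 0, with 6 at an unadjusted p below 0.05. They included Myocd, the coactivator of contractile genes (2.82-fold lower), the calponin gene Cnn1 (1.39-fold lower) and the actin gene Acta2 (1.49-fold lower). Relative to the smooth muscle median, Mcam overlapped between the groups, at -0.02, 0.05 and -0.03 in controls and -0.27, -0.15 and 0.02 in knockouts. On this measure every other gene of the set was higher in every knockout than in every control. The smooth muscle median itself was -0.06, -0.07 and 0.14 in controls and -0.55, -0.67 and -0.35 in knockouts. An unchanged gene therefore also comes out higher here, and the share of all tested genes that do so was not counted. The mean log2 differences included 0.30 for Jam3 and 2.19 for Vcam1, so the direction of Jam3 depended on the list it was set against. Of 7 pericyte genes, the potassium channel gene Kcnj8 rose 1.34-fold and the proteoglycan gene Cspg4 fell 1.46-fold, and the list's median was 0.04. Its summed level ranged from 752 to 982 TPM in controls and from 800 to 985 TPM in knockouts.

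Platelet and megakaryocyte genes were set beside Selp, which platelets and their precursors also make. Of 8 tested rows 0 rose and 1 fell, the integrin gene Itgb3 (1.46-fold lower), which other vessel cells also express, with a median log2 difference of -0.16 and summed levels of 143 to 150 TPM in controls and 148 to 164 TPM in knockouts. Without knockout replicate 3 the list had 10 tested rows and a median of 0.23, with Itgb3 lower and both rows of Treml1 higher, these 2 rows having the same values, and without control replicate 1 the median was 0.31. The platelet chemokine gene Pf4 averaged 16.1 CPM in the control and 21.0 CPM in the knockout libraries, higher without overlap (1.30-fold, edgeR adjusted p = 0.095). Itga2b, the platelet integrin gene, and the chemokine gene Ppbp had log2 differences of 0.51 and 0.68 and overlapped between the groups. The glycoprotein genes Gp9, Gp1bb and Gp6 were under 1 CPM on average in both groups, and Gp1ba averaged 3.59 and 2.84 CPM. Most of the list's summed level came from Pf4 and Itgb3. Pf4 was at 60.7 to 81.3 TPM in controls and 86.5 to 104 TPM in knockouts, and Itgb3 at 56.8 to 68.9 and 38.9 to 47.8 TPM. The sum therefore says little about the other genes of the list. Relative to the platelet list's median, Selp stood at -0.20, 0.12 and 0.11 in controls and 1.12, 0.66 and 0.76 in knockouts. That was a mean log2 difference of 0.84, without overlap. Of 8 adventitial fibroblast genes 3 rose (median 0.38), and 5 without knockout replicate 3, with the proteoglycan genes Lum and Dcn at 3.42-fold and 1.46-fold and the growth factor receptor gene Pdgfra at 1.34-fold, and summed levels of 3101 to 3351 and 4170 to 5144 TPM. Of 7 lymphatic endothelial rows 3 rose (median 1.02), and 5 without knockout replicate 3, with the lymphatic regulator gene Prox1 2.03-fold and the receptor gene Flt4 1.46-fold higher. Pdpn had 2 rows with the same values, both among the 5 and both in the median and the sum. The chemokine gene Ccl21a has near-identical copies that can share its reads. Its tested row rose 4.32-fold and its second row was at 0 in all libraries. The lymphatic rows summed to 59.5 to 83.0 TPM in controls and 153 to 234 TPM in knockouts. None of 5 mesothelial and 10 perivascular fat genes was called, with Upk3b and Msln at 25.9 and 9.45 CPM in controls and 11.9 and 5.34 CPM in knockouts, and medians of -0.91 and -0.76 for the lists. The fat genes Ucp1, Cox7a1 and Cox8b fell without knockout replicate 3, and the medians were then -1.53 and -1.79. Without control replicate 1 they were -1.21 and -0.28. The mesothelial genes summed to 18.1 to 61.2 TPM in controls and 9.47 to 30.6 TPM in knockouts, and the fat genes to 717 to 2644 and 357 to 1938 TPM. The part of these cell types in the adhesion genes' levels was not tested.

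**Figure D4:**
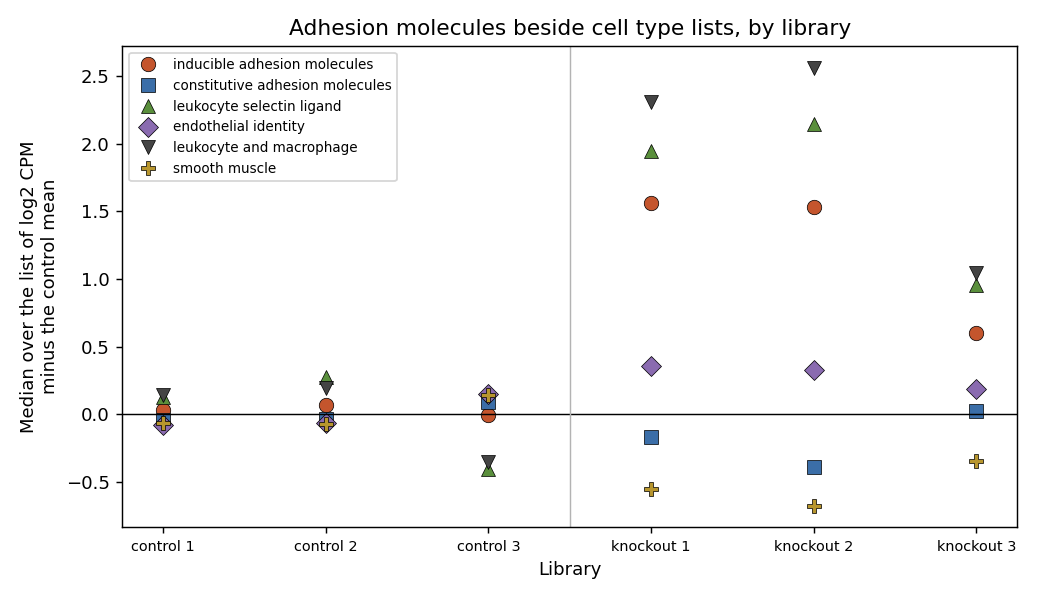
Median over each gene list of the log2 CPM minus the control mean, by library, for the adhesion genes and for lists of endothelial, leukocyte and smooth muscle genes. The leukocyte list, the inducible genes and Selplg stand highest in knockout replicates 1 and 2 and lower in replicate 3 (1.04, 0.60 and 0.96), while the endothelial list stays between 0.19 and 0.36 in the knockouts.

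The partners of the adhesion molecules on leukocytes moved in both directions. Of 11 counter-receptor genes 3 rose and 2 fell (median log2 difference 0.95), and 6 rose and 2 fell without knockout replicate 3. Itgax and Itgb2, subunits of the beta2 integrins that bind ICAM-1, rose 8.73-fold and 4.81-fold. Itgb1, a partner chain in the receptor for VCAM-1, and Itga9 fell, with log2 differences of -0.37 and -0.60, and both are also made by smooth muscle. Itga4, the other chain of that receptor, averaged 24.7 CPM in the control and 36.4 CPM in the knockout libraries and did not pass (edgeR adjusted p = 0.0665). Of 11 genes for the sugar and sulfate modification of selectin ligands 2 rose and 0 fell (median 0.25). These were the galactosyltransferase gene B4galt1 (1.31-fold) and the sialyltransferase gene St3gal4 (1.48-fold). The fucosyltransferase gene Fut7, needed for selectin binding in leukocytes, averaged 0.185 CPM in the control and 0.635 CPM in the knockout libraries and did not pass (edgeR adjusted p = 0.104).

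Genes of cytokine activation and NF-kB feedback rose in part. Of 18 tested, 9 rose and 0 fell, with a median log2 difference of 0.68, and 17 of 19 rose without knockout replicate 3. Nfkbiz, an inducible NF-kB cofactor gene, stood at 41.6, 37.8 and 35.96 CPM in controls and 64.8, 74.9 and 70.5 CPM in knockouts, and the interferon regulatory factor gene Irf1 at 39.5, 39.7 and 42.5 and at 59.7, 58.0 and 54.2 CPM. For these 2 genes knockout replicate 3 was close to the other knockouts, unlike for Vcam1, Sele and Selp. Ch25h, the cholesterol 25-hydroxylase gene, rose 5.65-fold, to 6.51, 7.93 and 2.37 CPM. The NF-kB subunit genes Rela and Nfkb1 had log2 differences of 0.05 and 0.08 and did not pass. The other subunit genes, Rel, Relb and Nfkb2, had log2 differences of 0.56, 0.39 and 0.31 and did not pass either. Without knockout replicate 3, Rel, Relb and Nfkb2 were called higher (edgeR adjusted p = 0.00756, 0.00143 and 0.0127). Rela and Nfkb1 were not called in that fit (edgeR adjusted p = 0.1545 and 0.0831). Many genes of this list are also expressed by macrophages and smooth muscle.

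Other endothelial adhesion and transmigration genes were also measured. Of 15 tested, 4 rose and 1 fell, with a median log2 difference of 0.22, and 8 rose and 2 fell without knockout replicate 3. Jam2, the third JAM gene, rose 1.36-fold, the sialomucin gene Podxl 1.37-fold, the thrombospondin receptor gene Cd47 1.29-fold and Cdh5, the gene of VE-cadherin, 1.25-fold. The caveolin gene Cav1 fell, with a log2 difference of -0.47. Cdh5, Esam, Pecam1 and Emcn also belong to the endothelial identity list, so the rise of Cdh5 is counted in both lists. Of 6 genes of ectodomain shedding, by which cells cut adhesion molecules from their surface, 4 rose and 0 fell (median 0.31). The protease genes Adam8, Mmp14 and Adam17, the last a sheddase of several adhesion molecules, rose 8.39-fold, 1.87-fold and 1.24-fold. Without control replicate 1, edgeR called 0 members of any of these lists, with 4 of 6 shedding genes, 12 of 19 activation genes and 8 of 11 counter-receptor genes at an unadjusted p under 0.05.

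The profiles of the adhesion genes over the 6 libraries were compared with those of 12805 other genes by the root mean square distance of log2 CPM relative to the control mean. Nearest to Vcam1 were Cxcl16, a chemokine gene (0.0846), Tnfaip2 (0.118) and Apobec1 (0.124). Nearest to Sele were Kcnk13 (0.0957), Tyrobp (0.113) and Laptm5 (0.114), and both Tyrobp and Laptm5 are also in the leukocyte list. Selplg was nearest to the Fc receptor gene Fcgr2b (0.0233), Plxnc1 (0.0606) and Cd48 (0.0636). Among the genes nearest to Selp were Hook2 (0.0392) and P2rx7 (0.0572), and Icam1 was nearest to Azin2 (0.0418), As3mt (0.0556) and Chst7 (0.0587). Mcam was nearest to the muscle Z-disc gene Ldb3 (0.0369), Igsf9b (0.0396) and Fgf1 (0.0495). Icam2, F11r and Jam3, which moved little, were nearest to Cbx7 (0.0403), Fam189a2 (0.0135) and Ttc26 (0.0263). Among the 9 genes themselves the closest pair was Icam2 and Jam3 (0.107), followed by Icam1 and Selp (0.202) and by Vcam1 and Selplg (0.24), and the farthest was Sele and Mcam (2.03). The genomically adjacent Sele and Selp were 0.958 apart. The distances describe 6 libraries under 1 genotype contrast, and carry no test.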

How the data were processed

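RNA sequencing of 6 mouse aorta libraries, 3 control and 3 knockout, was analysed from 2 deposited tables. The estimated count values were deposited per gene and, the submitters' processing notes name kallisto 0.46.2, Trim Galore 0.6.5, FastQC 0.11.8 and the build GRCm38. The other table holds a normalized TPM signal as deposited by the authors, with columns that need not sum to 1e+06, and how it was scaled is not given in the sources used here. Whether counting used strand is not given either, so reads of antisense genes that overlap Vcam1, Icam1, Selp, Jam3 and Mcam cannot be told apart from theirs.

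Counts were rounded and genes filtered with filterByExpr (minimum count 10), which left 17392 of 36557 rows. TMM scaling and edgeR's quasi-likelihood F-test (edgeR 4.0.16, R 4.3.3) were used, with Benjamini-Hochberg adjustment over all tested genes and a threshold of 0.05. In counts simulated for this comparison the test was checked for recovery of known changes. Replicate libraries differed by more than sampling noise. Alternatives included DESeq2 1.42.0, limma 3.58.1 on counts and on log2(TPM + 1), other scalings and filters, covariates for perivascular fat and endothelial level, and leaving out each library. The fit without knockout replicate 3 was also applied to each gene list, a choice made after seeing the data.

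The 9 genes, the gene lists and the tests were chosen with earlier results of these data known. Named were all 9 genes, in each other list up to 3 called genes of lowest adjusted p or the 2 of highest level where none was called, and the 3 nearest profiles of each of the 9. The text gives only the first of these for Icam2, F11r and Jam3, and 1 of those for Selp is not reported here. Genes named outside that rule (Itgb1, Itga4, Fut7, Cdh5, Cav1, Rela, Nfkb1, Myh11, Pecam1, Nos3, Tek, Erg, Apoe, Pf4, Itga2b, Ppbp, Treml1, Gp9, Gp1ba, Gp1bb, Gp6, Cox7a1 and Cox8b) were chosen after their values were seen, as was the c-Rel and RelA motif after the sequences were seen. Rel, Relb, Nfkb2, Csf1, Cxcl1, Ccl2, Tnfaip3, Traf1, Pdpn, Ptprb, Plvap, Robo4, Flt1, Kdr, Esam, Vwf, Eng, Emcn and Mmrn2 were also named after their values were seen.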

Additional observations from a re-analysis of the deposited data

How the results depend on the processing

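The direction of each of the 9 genes was the same in all alternatives run, except for Icam2 without knockout replicate 2 (log2 difference 0.0065, edgeR adjusted p = 0.982). Leaving out 1 library at a time gave 0 to 3051 genes higher and 0 to 2028 lower by edgeR, and 0 to 6 of the 9 genes higher and 0 to 1 lower, with Icam2 between -0.264 and 0.0065. The highest counts came without knockout replicate 3. Without control replicate 1 or control replicate 3 edgeR called 0 genes, with 4056 at an unadjusted p below 0.05 in each, where DESeq2 called 1482 higher and 856 lower, and 1445 higher and 771 lower, and limma-voom 0. DESeq2 on all libraries called 2086 genes higher and 1357 lower. With limma-voom 559 genes were higher, and 3 of the 9 higher and 0 lower. On log2(TPM + 1) limma called 461 higher and 251 lower, and on log2(TPM + 0.1) 641 and 301, with 3 of the 9 higher and 0 lower on both. With library size alone 0 of the 9 were lower, and 76.8% of all calls were higher, where TMM gave 1131 of 1798. That share was 52.1% with limma-voom and 53.2% with the fat covariate. The fat covariate left 134 genes higher and 118 lower, with 1 of the 9 higher and 0 lower. The endothelial covariate left 0 genes higher and 0 lower and 0 of the 9 either way. The cause of these differences was not tested. Same-numbered libraries deviated together with correlations of -0.092, 0.234 and 0.0757, so the numbers were not taken to pair the samples. A fit with the replicate block called 1295 genes higher and 700 lower, with 4 of the 9 higher and 1 lower, F11r losing its call (adjusted p = 0.0696 by edgeR). Sele had the fewest counts of the 9 genes, 141 to 211 in controls, and 3 libraries a group limit the precision of all values.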
